A study of Homo sapiens with 8 samples.

Results

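The data here are the read counts of 51 mitosis and spindle genes in bulk polyA RNA-seq of 2 human acute myeloid leukemia (AML) lines, Molm13 and THP1. The genes were given as a list of symbols covering entry into mitosis, the spindle, the kinetochore, chromosome condensation and cytokinesis. Each was found once among the 57992 genes of the Molm13 count table and, by its Ensembl identifier, among the 58174 genes of the THP1 table. No threshold on a measured value chose them, but the list was chosen with earlier results of these data known. Gene positions below are those of the Molm13 table, in build hg38, and exon overlaps were read from GENCODE 29. All 51 passed the filter on low counts in both lines, in which 16446 and 16294 genes were tested. The cells carried a DOX-inducible vector with a control shRNA (shCtrl, labelled WT for genotype) or shRNA against PRMT9 (shPRMT9, labelled PRMT9 knockdown), and the labels give Dox induction for every library, shCtrl included. With 2 libraries in each of 4 groups, there were 8. The PRMT9 libraries of a line are named shPRMT9-1 and shPRMT9-2, and the labels do not say whether these are repeats of 1 hairpin or 2 hairpins, so their spread may hold a difference between hairpins. The labels give neither the length of the Dox treatment nor whether the 2 libraries of a group came from separate cultures, so the tests measure the spread between these libraries, which may be technical.

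PRMT9 is an arginine methyltransferase, an enzyme that adds methyl groups to arginine residues of other proteins. The genes followed here run the last part of the cell cycle. Cyclin B and CDK1 drive the cell into mitosis, condensin compacts the chromosomes, microtubules and kinesins build the spindle, and kinetochores tie chromosomes to it. The spindle checkpoint holds back the anaphase-promoting complex (APC/C) until every chromosome is attached, after which the sister chromatids separate and the cell divides. Most of these transcripts are made in G2 and mitosis and are low in resting cells, and many serve as markers of proliferation in leukemia. Their promoters often carry a CHR element, which MuvB complexes bind, and CCAAT boxes, which NF-Y binds. The DREAM complex (MuvB with E2F4 and RBL1 or RBL2) keeps the genes off in resting cells, and MuvB with B-MYB and FOXM1 turns them on before mitosis.

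Library totals ranged from 18720950 to 27356870 counts, and a member had between 166 counts (SPC25, Molm13 with shPRMT9) and 33723 counts (MKI67, THP1 with shCtrl) in a library. PRMT9 was measured at 332 and 289 counts with shCtrl and 41 and 56 counts with shPRMT9 in Molm13, and at 317 and 352 counts with shCtrl and 60 and 68 counts with shPRMT9 in THP1. Its log2 fold change was -2.68 ± 0.14 (SE, as in every such value here) in Molm13 and -2.29 ± 0.13 in THP1, with an edgeR FDR of 3.4e-21 and 3.4e-14. Of the myeloid markers, SPI1, CEBPA, CD33, MPO, LYZ, ITGAM, CSF1R and FCGR1A were detected in every library of both lines. CD14 had only 4 to 8 counts in the Molm13 libraries. THP1 library names include the letters OCI as well, while every other label gives THP1. MEIS1 had 4 to 9 counts in the THP1 libraries. Reads on processed pseudogenes made up 3.99% to 4.31% of counts in Molm13 and 0.0959% to 0.0985% in THP1, so levels set across the lines come from tables that differ in this respect.

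Nearly all mitosis and spindle genes fell in Molm13 with shPRMT9. Of the 51 genes, 50 were lower with an FDR below 0.05, 0 were higher, and 1 (CDC25C) did not pass. Among all genes tested, 67.0% passed at this FDR, 33.6% lower and 33.4% higher. The median log2 fold change of the 51 genes was -0.71, which is 61.1% of the shCtrl level, with a range from -1.75 to 0.14 and a median of 0.00 over all genes tested. With the stricter rule for differentially expressed genes (FDR below 0.05, a change of more than 1.5-fold and an RPKM above 1 in at least 1 library), 31 were lower and 0 were higher, against 11.4% in each direction among all genes. In 50 of the 51, both shPRMT9 libraries lay below both shCtrl libraries, as they did in 40.8% of all genes. The share of all counts that fell on the 51 genes was 0.894% and 0.907% with shCtrl and 0.562% and 0.561% with shPRMT9. In bulk libraries, a smaller share of cells in G2 and mitosis and less of these RNAs per cell cannot be told apart.

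In THP1 the same genes moved less. There, 42 were lower with an FDR below 0.05, 2 (ANLN and WDR62) were higher and 7 did not pass, against 37.7% past the FDR, 18.6% lower and 19.1% higher, among all genes tested. The median log2 fold change was -0.20, or 87.2% of the shCtrl level, with a range from -0.63 to 0.26 and a median of 0.00 over all genes. Only SPC25 passed the 1.5-fold rule, which 2.39% of all genes passed downward and 3.84% upward. Both shPRMT9 libraries lay below both shCtrl libraries in 44 genes and above them in 4, and each of these orders held in 33.0% of all genes. Their share of the counts was 0.900% and 0.911% with shCtrl and 0.792% and 0.785% with shPRMT9. Replicate libraries of a group differed in these genes by a median of 0.026 to 0.048 on the log2 scale, and by at most 0.25 (CDC25C, THP1 with shPRMT9).

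**Figure D1:**
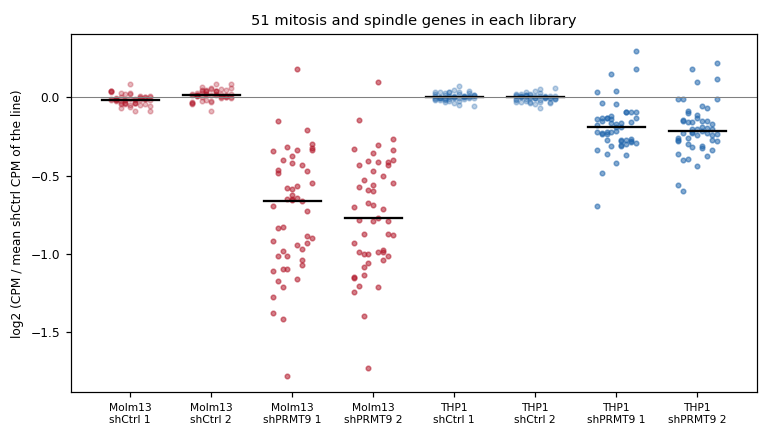
Log2 ratio of each library's CPM (counts scaled to library size with TMM factors) to the mean shCtrl CPM of its line (y axis) for the 51 genes (points) in the 8 libraries (x axis), with black lines at the library medians. The 2 Molm13 shPRMT9 libraries have medians of -0.66 and -0.77, the 2 THP1 shPRMT9 libraries -0.19 and -0.22, and the shCtrl libraries stay between -0.02 and 0.02.

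Of 9 myeloid or monocytic markers, 6 rose and 2 fell in each line with shPRMT9 at an FDR below 0.05. The genes that rose and fell were not all the same in the 2 lines. Over all genes tested, 33.4% rose and 33.6% fell in Molm13, and 19.1% rose and 18.6% fell in THP1. The summed RPKM of the 9 markers was 591 to 595 with shCtrl and 865 to 866 with shPRMT9 in Molm13, and 1343 to 1362 and 2036 to 2123 in THP1. Most of each sum was LYZ, the lysozyme, with a mean RPKM of 360 and 569 in Molm13 and 1069 and 1747 in THP1. On the log2 scale ITGAM, the CD11b integrin, changed by 1.95 ± 0.05 in Molm13 and by 1.15 ± 0.06 in THP1, and CSF1R, the M-CSF receptor, by 2.06 ± 0.06 and 1.03 ± 0.04. MPO, the myeloperoxidase of granulocyte precursors, fell in both lines, with -0.56 ± 0.05 and -0.82 ± 0.14. FCGR1A, a monocyte Fc receptor, had -0.44 ± 0.11 and -0.01 ± 0.11, the latter not past the FDR, and CEBPA, a granulocyte and monocyte transcription factor, had 0.20 ± 0.03 and -0.12 ± 0.03. CD14 was not tested in Molm13. In THP1 it had 24 and 24 counts with shCtrl and 116 and 122 with shPRMT9, a change of 2.40 ± 0.22 (FDR 3.4e-10). The part of these markers in the fall of the mitosis genes was not tested. Markers of T cells and erythroid cells stayed near 0, their summed RPKM being at most 0.219 and 0.21 in any library. The 5 B cell markers summed to 4.59 to 4.79 RPKM in Molm13, and in THP1 to 0.928 and 1.02 with shCtrl and 2.28 and 1.79 with shPRMT9, with MS4A1 at 0 or 1 counts in every library. PAX5, a B lineage transcription factor, had 64 and 86 counts with shCtrl and 298 and 276 with shPRMT9 in THP1, a log2 fold change of 2.03 ± 0.14 (FDR 6.8e-13), against -0.12 ± 0.06 (FDR 0.057) in Molm13. The part of this rise in the THP1 values was not tested. The 4 HOXB genes, which had at most 5 counts each in Molm13, summed to 2.26 to 2.61 RPKM in THP1, and the HOXA genes with MEIS1 to 52.8 to 54.97 in Molm13 and 28.4 to 30.4 in THP1. Within the latter sums, MEIS1 had a mean RPKM of 6.72 with shCtrl and 7.92 with shPRMT9 in Molm13. In THP1 MEIS1 had 0.019 and 0.031. Whether the libraries labelled THP1, whose names include OCI, come from that line was not tested.

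Taking both lines together, 42 of the 51 genes were lower in both, against 10.8% of the 13476 genes tested in both lines. A further 2 were lower in Molm13 and higher in THP1, against 5.53% of those genes, 6 were lower in Molm13 and did not pass in THP1, and CDC25C passed in neither. The effect of shPRMT9 itself was then compared between the lines with an interaction term over all 8 libraries, given as the THP1 minus the Molm13 log2 fold change. This joint fit has its own scaling factors, so a difference can depart slightly from the separate log2 fold changes subtracted. In 48 members this difference had an FDR below 0.05 (41.4% of all genes tested did), and in all 48 the log2 fold change was higher (less negative) in THP1, which held for 22.5% of the 19288 genes tested, while 18.9% differed the other way. The median difference was 0.53 over the 51 genes and 0.03 over all genes tested. The difference of a gene exceeded 1.5-fold in 23 of the 48, as in 9.61% of all genes, and 2-fold in 4, namely WDR62, CDC20, NCAPH and ECT2, as in 3.26% of all genes. Across the 51 genes, the log2 fold changes of the lines had a Pearson r of 0.30 and a Spearman rho of 0.42, a description over genes that share the same libraries.

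**Figure D2:**
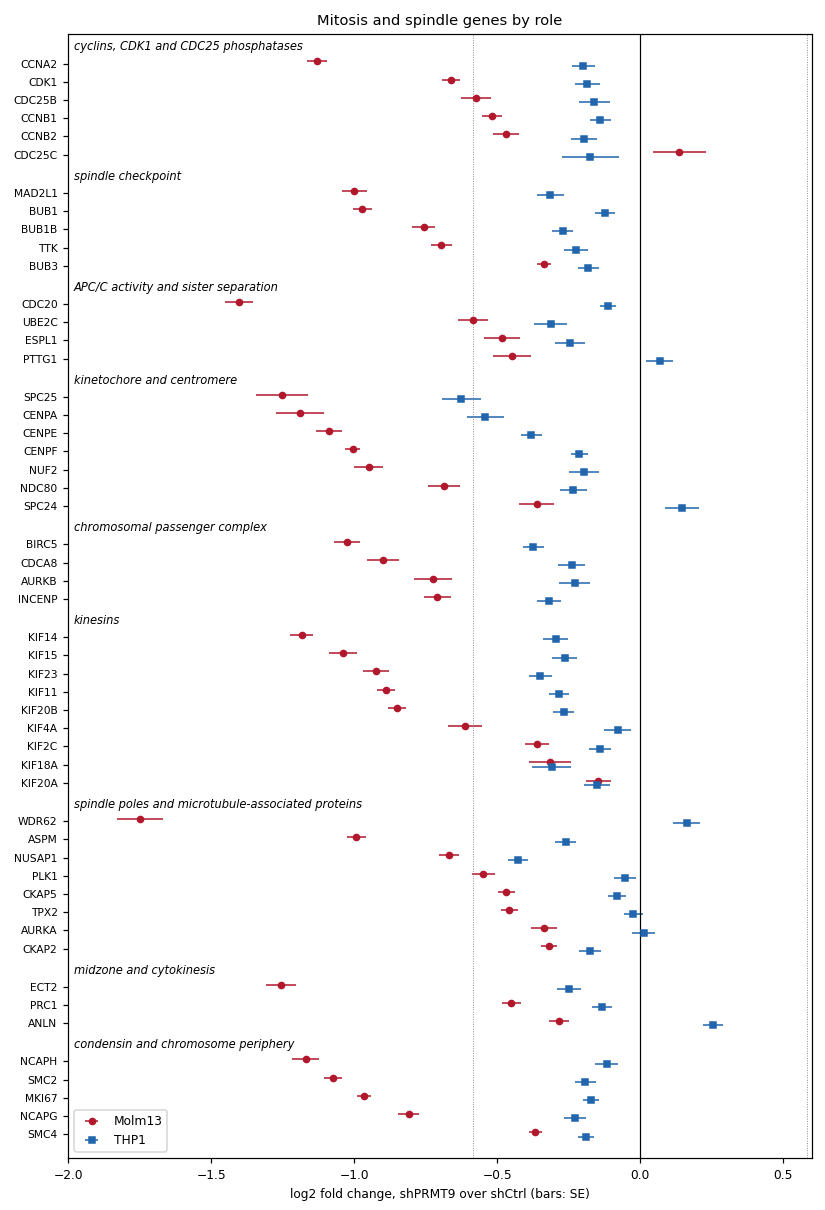
Log2 fold change of shPRMT9 over shCtrl (x axis, bars are SE) for the 51 genes grouped by role (y axis), with Molm13 as red circles and THP1 as blue squares. Dotted lines mark 1.5-fold. In Molm13 31 genes lie beyond the lower dotted line, and in THP1 SPC25 alone does.

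To show the promoter elements that these genes are known for, the letters TTTGAA (the core of the CHR element) and CCAAT were searched on both strands in the 250 bases before the RefSeq start (build GRCh38.p14). A window was found for 45 of the 51 genes, the exceptions being BUB3, TTK, UBE2C, BIRC5, AURKA and TPX2, and the first window listed for a gene was used. TTTGAA was present in 23 windows (51.1%) and CCAAT in 32 (71.1%), and both in 18 (40%). Over the 27305 genes with a window, the shares were 13.6%, 33.0% and 4.85%. The letters of TTTGAA and CCAAT overlapped in 2 of the members. Of the 26 TTTGAA matches in the members, 21 began within 100 bases of the start. The 3 windows below belong to the members with both motifs and the largest falls in Molm13, among those with at most 30 bases in annotated exons, and capitals mark TTTGAA and CCAAT on either strand.
CDC20: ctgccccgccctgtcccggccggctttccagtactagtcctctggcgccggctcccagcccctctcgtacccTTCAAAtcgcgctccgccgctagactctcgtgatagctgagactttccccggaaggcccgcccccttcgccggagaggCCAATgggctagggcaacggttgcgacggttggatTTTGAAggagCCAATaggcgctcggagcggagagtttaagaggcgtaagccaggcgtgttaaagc
ASPM: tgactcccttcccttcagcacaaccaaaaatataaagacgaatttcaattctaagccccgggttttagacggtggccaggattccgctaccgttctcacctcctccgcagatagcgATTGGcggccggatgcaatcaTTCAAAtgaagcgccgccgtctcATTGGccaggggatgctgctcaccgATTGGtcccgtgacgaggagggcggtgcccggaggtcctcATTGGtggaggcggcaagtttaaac
MKI67: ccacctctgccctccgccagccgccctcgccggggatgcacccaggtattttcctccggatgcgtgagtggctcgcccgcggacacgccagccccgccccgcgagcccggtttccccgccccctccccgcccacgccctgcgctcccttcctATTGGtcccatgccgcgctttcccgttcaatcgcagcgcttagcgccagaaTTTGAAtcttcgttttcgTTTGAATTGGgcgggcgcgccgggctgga
These windows are chr1:43358731-43358980 on the plus strand, chr1:197146670-197146919 on the minus strand and chr10:128126424-128126673 on the minus strand. CDC20 has TTTGAA letters beginning 178 and 65 bases before the start and CCAAT letters at 100 and 55 bases. ASPM has 1 TTTGAA match, at 113 bases, and 4 CCAAT matches. MKI67 has TTTGAA at 47 and 29 bases, the latter sharing letters with a CCAAT at 24 bases. Members with and without TTTGAA had similar median log2 fold changes in Molm13, -0.76 for 23 genes and -0.79 for 22, and in THP1 -0.24 and -0.18. The 50 bases after the start and 12 further windows of the members were not searched. The 22 genes are thus not shown to lack a CHR element. WDR62, the member with the largest fall in Molm13, has 3 CCAAT matches in its window and no TTTGAA.

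The cyclins, CDK1 and the CDC25 phosphatases start mitosis. Of these 6 genes, 5 were lower in both lines, against 10.8% of the genes tested in both. CDK1 (ENSG00000170312, chr10:60778331-60794852), the mitotic kinase, was at 219 and 213 CPM with shCtrl and 138 and 136 CPM with shPRMT9 in Molm13 and at 109 and 112 CPM with shCtrl and 100.4 and 94.5 CPM with shPRMT9 in THP1. Its shPRMT9 libraries lay below its shCtrl libraries in both lines. The log2 fold change was -0.66 ± 0.03 (FDR 3.8e-22) in Molm13 and -0.18 ± 0.04 (FDR 0.00086) in THP1, a difference of 0.49 ± 0.05 (FDR 8.1e-11). CCNB1 (ENSG00000134057, chr5:69167010-69178245), the cyclin B1 that activates CDK1, was at 162 and 167 CPM with shCtrl and 119 and 111 CPM with shPRMT9 in Molm13, a log2 fold change of -0.52 ± 0.04 (FDR 9e-17). In THP1 it was at 167 and 168 CPM with shCtrl and 153 and 151 CPM with shPRMT9, a change of -0.14 ± 0.04 (FDR 0.0028). CCNA2 (ENSG00000145386, chr4:121816444-121823933), the cyclin A2 that acts in S phase and G2, fell most of this group in Molm13. There it was at 184 and 186 CPM with shCtrl and 85.8 and 83.4 CPM with shPRMT9, which is 45.7% of the shCtrl level (log2 fold change -1.13 ± 0.04, FDR 6.5e-29). In THP1 CCNA2 was at 201 and 192 CPM with shCtrl and 178 and 164 CPM with shPRMT9, 87.1% of the shCtrl level (-0.20 ± 0.04, FDR 0.00016). The groups did not overlap in any of these comparisons, and the Molm13 fall of CCNA2 exceeded the THP1 fall by 0.94 ± 0.05 on the log2 scale (FDR 8.5e-20).

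CCNB2 and CDC25B, a second cyclin B and a phosphatase that activates CDK1, had log2 fold changes of -0.47 ± 0.05 and -0.57 ± 0.05 in Molm13, against -0.20 ± 0.05 and -0.16 ± 0.05 in THP1. The THP1 call of CDC25B was lost without the shCtrl library 1 (-0.16), the shCtrl library 2 (-0.17) or the shPRMT9 library 1 (-0.13), and also with DESeq2 (-0.16) or no filter on low counts (-0.17). CDC25C (ENSG00000158402, chr5:138285265-138338355), another CDK1-activating phosphatase, was the exception of the group and of the whole list. It was at 12.5 and 13.2 CPM with shCtrl and 14.5 and 13.7 CPM with shPRMT9 in Molm13, so both shPRMT9 libraries lay slightly above both shCtrl libraries, with a log2 fold change of 0.14 ± 0.09 that did not pass (FDR 0.19). In THP1 it was at 13.7 and 12.5 CPM with shCtrl and 10.6 and 12.6 CPM with shPRMT9, with overlapping groups and a value of -0.18 ± 0.10 (FDR 0.18), which passed without the shPRMT9 library 2 (-0.31). Its exons share up to 586 bases with those of FAM53C on the opposite strand, a gene with 1326 mean counts in Molm13 against 269 for CDC25C, and the strand setting of the counting is not given in the sources used here.

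The 5 spindle checkpoint genes were lower in both lines, against 10.8% of the genes tested in both. Their medians were -0.76 in Molm13 and -0.22 in THP1. MAD2L1, which binds and blocks CDC20 at unattached kinetochores, changed by -0.999 ± 0.04 on the log2 scale in Molm13 and by -0.31 ± 0.05 in THP1. BUB1, a kinetochore kinase, changed by -0.97 ± 0.03 in Molm13 and by -0.12 ± 0.03 in THP1, where its call was lost without the shPRMT9 library 2 (-0.09). BUB1B, the BubR1 subunit of the inhibitory complex, and TTK, the kinase that starts checkpoint signaling, had -0.76 and -0.70 in Molm13 and -0.27 and -0.22 in THP1. BUB3, which brings the BUB kinases to kinetochores, moved least of the 5 in Molm13, by -0.34 ± 0.02, and by -0.18 ± 0.04 in THP1.

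The target of this checkpoint, CDC20 (ENSG00000117399, chr1:43358955-43363203), activates the APC/C in mitosis and fell steeply in Molm13 and slightly in THP1. Its Molm13 libraries had 93.4 and 102 CPM with shCtrl and 36.7 and 37.2 CPM with shPRMT9, which is 37.8% of the shCtrl level. The log2 fold change was -1.40 ± 0.05 (FDR 4.5e-27), and both shPRMT9 libraries lay far below both shCtrl libraries. The THP1 libraries had 742 and 727 CPM with shCtrl and 669 and 690.1 CPM with shPRMT9, a change of -0.11 ± 0.03 (FDR 0.0024) with a narrow gap between the groups. The difference of 1.30 ± 0.06 had the smallest FDR of the 51 genes (4.7e-24). A processed copy, CDC20P1, held 28.2% as many counts as CDC20 in Molm13 and 4.78% in THP1, and the log2 ratio of the mean CPM of gene plus copy was -1.38 and -0.12. UBE2C, the ubiquitin-conjugating enzyme that works with the APC/C, changed by -0.58 ± 0.05 in Molm13 and by -0.31 ± 0.06 in THP1. ESPL1, the separase that cuts cohesin, had -0.48 ± 0.06 and -0.25 ± 0.05. PTTG1 (ENSG00000164611, chr5:160421822-160428744), the securin that restrains separase, was at 37.3 and 33.1 CPM with shCtrl and 26.3 and 25.4 CPM with shPRMT9 in Molm13, a change of -0.45 ± 0.07 (FDR 9.6e-08). In THP1 PTTG1 was at 67.5 and 71.1 CPM with shCtrl and 71.3 and 74.2 CPM with shPRMT9, both shPRMT9 libraries lying just above both shCtrl libraries, with a value of 0.07 ± 0.05 that did not pass (FDR 0.27).

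Kinetochore and centromere genes showed the largest median fall of the 9 roles in Molm13, -1.01, with condensin and the chromosome periphery next at -0.97. This ranks small groups of genes, with no test. Of the 7 kinetochore and centromere genes, 6 passed the 1.5-fold rule in Molm13, against 11.4% of all genes downward. In THP1 their median was -0.23. SPC25 (ENSG00000152253, chr2:168834132-168913371), a subunit of the NDC80 complex that holds microtubules, was at 23.7 and 22.4 CPM with shCtrl and 8.88 and 10.4 CPM with shPRMT9 in Molm13 and at 32.03 and 32.3 CPM with shCtrl and 19.9 and 21.8 CPM with shPRMT9 in THP1. Both falls were larger than the replicate spread, at -1.25 ± 0.09 (FDR 3.2e-16) and -0.63 ± 0.07 (FDR 1.6e-08), the latter being the largest fall of the list in THP1. CENPA (ENSG00000115163, chr2:26764289-26801067), the histone H3 variant that marks centromeres, was at 24.3 and 24.5 CPM with shCtrl and 10.8 and 10.6 CPM with shPRMT9 in Molm13 and at 35.3 and 36.3 CPM with shCtrl and 25.5 and 23.7 CPM with shPRMT9 in THP1. Its changes of -1.19 ± 0.08 (FDR 1.7e-16) and -0.54 ± 0.06 (FDR 7.7e-08) were among the 5 largest falls in both lines. CENPE (ENSG00000138778, chr4:103105806-103198409), a kinetochore motor, was at 103 and 109.6 CPM with shCtrl and 49.6 and 50.2 CPM with shPRMT9 in Molm13 and at 186 and 189 CPM with shCtrl and 145 and 142 CPM with shPRMT9 in THP1, with log2 fold changes of -1.09 ± 0.04 (FDR 8.6e-25) and -0.38 ± 0.04 (FDR 1.1e-09). The groups did not overlap for CENPE in either line. CENPA shares 138 exon bases with SLC35F6 on the same strand.

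CENPF (ENSG00000117724, chr1:214603195-214664588), a large coiled-coil protein of the outer kinetochore, was at 606 and 638 CPM with shCtrl and 308 and 311 CPM with shPRMT9 in Molm13, 49.8% of the shCtrl level (-1.01 ± 0.03, FDR 8.1e-32). Its THP1 level was 417 and 416 CPM with shCtrl and 357 and 361 CPM with shPRMT9, 86.3% of the shCtrl level (-0.21 ± 0.03, FDR 1.6e-06), and the difference was 0.80 ± 0.04 (FDR 5.6e-22). NDC80 and NUF2, the subunits of the same complex that reach the microtubule, had -0.69 and -0.95 in Molm13 and -0.23 and -0.20 in THP1. SPC24 (ENSG00000161888, chr19:11131520-11155808), the partner of SPC25, parted from it in THP1. There SPC24 was at 33.9 and 36.8 CPM with shCtrl and 40.01 and 38.4 CPM with shPRMT9, both shPRMT9 libraries above both shCtrl libraries, with a value of 0.15 ± 0.06 (FDR 0.056) that passed without the shCtrl library 2 (0.20), without the shPRMT9 library 2 (0.18) and in a common fit of all 8 libraries (0.15). In Molm13 SPC24 was at 40.6 and 45.9 CPM with shCtrl and 34.5 and 32.7 CPM with shPRMT9, a change of -0.36 ± 0.06 (FDR 1.3e-06).

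All 4 genes of the chromosomal passenger complex, which corrects faulty attachments and guides cytokinesis, were lower in both lines and passed the 1.5-fold rule in Molm13. AURKB (ENSG00000178999, chr17:8204733-8210600), its kinase, was at 36.6 and 39.8 CPM with shCtrl and 24.2 and 22.1 CPM with shPRMT9 in Molm13 and at 54.8 and 51.4 CPM with shCtrl and 45.6 and 44.8 CPM with shPRMT9 in THP1. Its log2 fold changes were -0.72 ± 0.07 (FDR 4.5e-13) and -0.23 ± 0.05 (FDR 0.00094), without overlap of the groups in either line. BIRC5 (ENSG00000089685, chr17:78214186-78225636), survivin, was at 95.7 and 95.5 CPM with shCtrl and 45.6 and 48.2 CPM with shPRMT9 in Molm13 and at 174 and 174 CPM with shCtrl and 135 and 134 CPM with shPRMT9 in THP1. Its values of -1.03 ± 0.05 (FDR 1.2e-23) and -0.37 ± 0.04 (FDR 1.8e-09) were the lowest of the complex in both lines, and in THP1 the next, INCENP, was within their errors. INCENP, the scaffold, had -0.71 ± 0.05 and -0.32 ± 0.04, and CDCA8, borealin, -0.90 ± 0.06 and -0.24 ± 0.05. Of the genes tested in both lines, 10.8% were lower in both. The 1.5-fold rule was passed downward by 11.4% of all genes in Molm13.

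The 9 kinesins are the motors of the spindle. All 9 were lower in Molm13 and 8 in THP1, against 33.6% and 18.6% of all genes tested. KIF11, the motor that pushes the spindle poles apart, changed by -0.89 ± 0.03 in Molm13 and by -0.29 ± 0.04 in THP1. For KIF14 (-1.18), KIF15 (-1.04), KIF23 (-0.92) and KIF20B (-0.85) the Molm13 values were also past 1.5-fold, and in THP1 they were -0.30, -0.26, -0.35 and -0.27. KIF23 and KIF14 work in cytokinesis, and KIF15 can stand in for KIF11 at the spindle. KIF2C, which takes microtubules apart, had -0.36 ± 0.04 and -0.14 ± 0.04, the THP1 call being lost without the shCtrl library 1 (-0.11). KIF4A, a chromosome-bound motor, had -0.61 ± 0.06 in Molm13 and -0.08 ± 0.05 in THP1, where it did not pass (FDR 0.20). Its retrocopy KIF4B held 22.6% as many counts as KIF4A in Molm13 and 0.142% in THP1, and the log2 ratio of both together was -0.58 and -0.08.

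KIF20A and KIF18A were among the 5 members with the smallest falls in Molm13, and their values were close to those in THP1. KIF20A (ENSG00000112984, chr5:138178719-138187715), a motor of the central spindle, was at 74.5 and 75.6 CPM with shCtrl and 67.6 and 67.9 CPM with shPRMT9 in Molm13 and at 88.4 and 84.7 CPM with shCtrl and 77.9 and 77.9 CPM with shPRMT9 in THP1. Its log2 fold change was -0.15 ± 0.04 (FDR 0.0029) and -0.15 ± 0.04 (FDR 0.0074), and the THP1 call was lost without the shCtrl library 1 (-0.12). KIF18A (ENSG00000121621, chr11:28020620-28108308), which damps chromosome movement, was at 26.4 and 28.01 CPM with shCtrl and 23.5 and 20.4 CPM with shPRMT9 in Molm13 and at 28.98 and 27.4 CPM with shCtrl and 23.1 and 22.4 CPM with shPRMT9 in THP1. It had -0.32 ± 0.07 (FDR 0.00021) and -0.31 ± 0.07 (FDR 0.00056). For both, the difference between the lines did not pass, at 0.01 ± 0.06 (FDR 0.99) and 0.02 ± 0.10 (FDR 0.97), and its sign turned under other scalings. A p that misses the threshold does not show that the lines responded alike. KIF20A shares up to 132 exon bases with BRD8 on the opposite strand.

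Genes of the spindle poles and of microtubule-associated proteins spanned the widest range of the 9 roles in Molm13, from -1.75 to -0.32. All 8 were lower in Molm13, with a median of -0.51, and in THP1 4 were lower, 1 was higher and 3 did not pass, with a median of -0.07. Of all genes tested, 33.6% were lower in Molm13, and 18.6% were lower and 19.1% higher in THP1. WDR62 (ENSG00000075702, chr19:36054881-36105106), a centrosome protein needed for spindle pole integrity, was at 32.7 and 34.4 CPM with shCtrl and 9.79 and 10.2 CPM with shPRMT9 in Molm13. This fall to 29.8% of the shCtrl level was the largest of the 51 (log2 fold change -1.75 ± 0.08, FDR 5.3e-23). The THP1 libraries had 61.01 and 60.4 CPM with shCtrl and 67.1 and 68.8 CPM with shPRMT9, so the shPRMT9 libraries lay above the shCtrl libraries, with 0.16 ± 0.05 (FDR 0.0068). This THP1 rise did not pass without the shCtrl library 2 (0.15), without the filter (0.15) or in DESeq2 (0.16). The difference of 1.92 ± 0.09 (FDR 5.3e-22) was the largest of the list.

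PLK1 (ENSG00000166851, chr16:23677656-23690367), the polo kinase of mitotic entry and spindle assembly, was at 114 and 113 CPM with shCtrl and 77.7 and 77.5 CPM with shPRMT9 in Molm13, a change of -0.55 ± 0.04 (FDR 1.8e-16). In THP1 PLK1 was at 174 and 171 CPM with shCtrl and 161 and 171 CPM with shPRMT9, with overlapping groups and -0.05 ± 0.04 (FDR 0.29). AURKA (ENSG00000087586, chr20:56369389-56392337), the kinase of the spindle poles, was at 79.9 and 75.97 CPM with shCtrl and 61.4 and 61.95 CPM with shPRMT9 in Molm13 and at 115 and 112 CPM with shCtrl and 116 and 113 CPM with shPRMT9 in THP1. It changed by -0.34 ± 0.04 (FDR 8.6e-09) in Molm13, whereas the THP1 value of 0.01 ± 0.04 (FDR 0.84) came with overlapping groups and changed sign with the scaling. TPX2, the activator of AURKA, had -0.46 ± 0.03 in Molm13 and -0.02 ± 0.03 in THP1 (FDR 0.61), where both shPRMT9 libraries lay just below both shCtrl libraries. For these 3 genes the difference between the lines passed, at 0.51 ± 0.05, 0.36 ± 0.06 and 0.45 ± 0.04.

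NUSAP1 (ENSG00000137804, chr15:41332694-41381050), which bundles spindle microtubules, was at 187 and 201 CPM with shCtrl and 124 and 120.5 CPM with shPRMT9 in Molm13 and at 222 and 219 CPM with shCtrl and 165 and 163 CPM with shPRMT9 in THP1. The changes were -0.67 ± 0.04 (FDR 6.2e-21) and -0.43 ± 0.03 (FDR 4.3e-11), the latter with the smallest FDR of the list in THP1, and their difference of 0.25 ± 0.05 was below the median of the list. CKAP2 (ENSG00000136108, chr13:52455429-52476628), a microtubule-stabilizing protein, was at 300.0 and 309 CPM with shCtrl and 241 and 247 CPM with shPRMT9 in Molm13 and at 147 and 143 CPM with shCtrl and 129 and 127 CPM with shPRMT9 in THP1. It had -0.32 ± 0.03 (FDR 2.1e-13) and -0.18 ± 0.04 (FDR 0.00042). ASPM, which organizes spindle poles, had -0.99 ± 0.03 and -0.26 ± 0.04. CKAP5, a microtubule polymerase, had -0.47 ± 0.03 and -0.08 ± 0.03, and its THP1 call (FDR 0.041) was lost when any of the 4 THP1 libraries was left out (-0.10 to -0.07), and also with the replicate block (-0.08), DESeq2 (-0.08) or no filter on low counts (-0.09).

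Of the 3 midzone and cytokinesis genes, ECT2 had the largest fall in Molm13 and ANLN the smallest. ECT2 (ENSG00000114346, chr3:172750682-172821474), the RhoA activator that starts the cleavage furrow, was at 73.1 and 69.5 CPM with shCtrl and 29.5 and 30.2 CPM with shPRMT9 in Molm13 and at 96.01 and 97.7 CPM with shCtrl and 83.1 and 79.9 CPM with shPRMT9 in THP1. Its log2 fold changes were -1.26 ± 0.05 (FDR 2.5e-24) and -0.25 ± 0.04 (FDR 2.8e-05). ANLN (ENSG00000011426, chr7:36389806-36453791), anillin, a scaffold of the contractile ring, went opposite ways in the lines. It was at 149.7 and 162 CPM with shCtrl and 127 and 129 CPM with shPRMT9 in Molm13, a change of -0.28 ± 0.04 (FDR 3.6e-09), and at 238 and 236 CPM with shCtrl and 291 and 275 CPM with shPRMT9 in THP1, a change of 0.26 ± 0.03 (FDR 6.5e-07). The groups did not overlap in either line, and the difference was 0.55 ± 0.05 (FDR 7.2e-13). PRC1, which bundles the midzone microtubules, had -0.45 ± 0.03 and -0.13 ± 0.04, and its THP1 call was lost without the shPRMT9 library 2 (-0.10).

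All 5 genes of condensin and the chromosome periphery were lower in both lines, against 10.8% of the genes tested in both. Their medians were -0.97 in Molm13 and -0.19 in THP1. MKI67 (ENSG00000148773, chr10:128096659-128126385), the Ki-67 protein that coats mitotic chromosomes and the usual stain for proliferating cells, was at 1065 and 1123 CPM with shCtrl and 568 and 552 CPM with shPRMT9 in Molm13. This fall to 51.2% of the shCtrl level had the smallest FDR of the list in Molm13 (log2 fold change -0.97 ± 0.02, FDR 1.8e-32). In THP1 MKI67 was at 1206 and 1214 CPM with shCtrl and 1060.1 and 1087 CPM with shPRMT9, 88.7% of the shCtrl level (-0.17 ± 0.03, FDR 6.2e-06), and the difference was 0.81 ± 0.04 (FDR 9.4e-24). SMC2 (ENSG00000136824, chr9:104094260-104141417), a core ATPase of condensin, was at 281 and 299 CPM with shCtrl and 136 and 139.6 CPM with shPRMT9 in Molm13 and at 169 and 172 CPM with shCtrl and 152 and 146 CPM with shPRMT9 in THP1. Its changes were -1.07 ± 0.03 (FDR 1.5e-29) and -0.19 ± 0.04 (FDR 0.00012), with a difference of 0.90 ± 0.05 (FDR 5e-20).

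The partner ATPase SMC4 had a smaller fall than SMC2 in Molm13, -0.37 ± 0.02, and nearly the same in THP1, -0.19 ± 0.03. Exons of SMC4 share up to 5764 bases with TRIM59 on the opposite strand, which had 1027 mean counts in Molm13 against 18891 for SMC4. NCAPG and NCAPH, subunits of condensin I, had -0.81 and -1.17 in Molm13 and -0.23 and -0.12 in THP1. The THP1 call of NCAPH was lost without the shCtrl library 2 (-0.10) or the shPRMT9 library 1 (-0.10), and also with DESeq2 (-0.12) or no filter (-0.13).

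**Figure D3:**
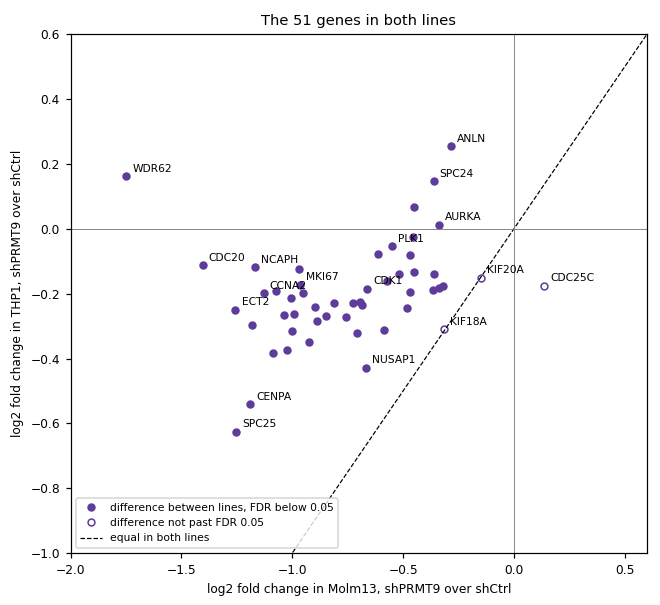
Log2 fold change in THP1 (y axis) against that in Molm13 (x axis) for the 51 genes, with filled points where the difference between the lines had an FDR below 0.05 (48 genes) and open points where it did not (3 genes). The dashed line marks equal changes, and by the separate fits of the lines 49 genes lie on the side of the larger fall in Molm13.

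Levels were compared between genes as RPKM (CPM divided by exon length in kilobases) in the shCtrl libraries. In Molm13, SMC4 was highest at 126 ± 1.80 (mean ± SD, n = 2 here), followed by MKI67 at 85.4 ± 3.17 and BUB3 at 77.1 ± 0.0526. TPX2 at 68.7 ± 1.08, NUSAP1 at 67.4 ± 3.35, CKAP2 at 66.96 ± 1.37 and CCNA2 at 66.1 ± 0.729 came next, each differing from its neighbour by less than the larger SD of the pair. The lowest were WDR62 at 3.43 ± 0.122 and CDC25C at 4.21 ± 0.162. In THP1, CDC20 stood far above the rest at 360.4 ± 5.12, against 48.04 ± 3.15 in Molm13. MKI67 followed at 94.5 ± 0.443, then NUSAP1 at 76.7 ± 0.567 and SMC4 at 75.1 ± 0.304, a gap larger than either SD, and CDC25C was lowest at 4.29 ± 0.291. Across the 51 genes the log2 RPKM of the lines had a Pearson r of 0.81 and a Spearman rho of 0.81. Between the log2 fold change and the log2 mean CPM, Spearman's rho was 0.10 for Molm13 and 0.22 for THP1 (n = 51 genes).

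**Figure D4:**
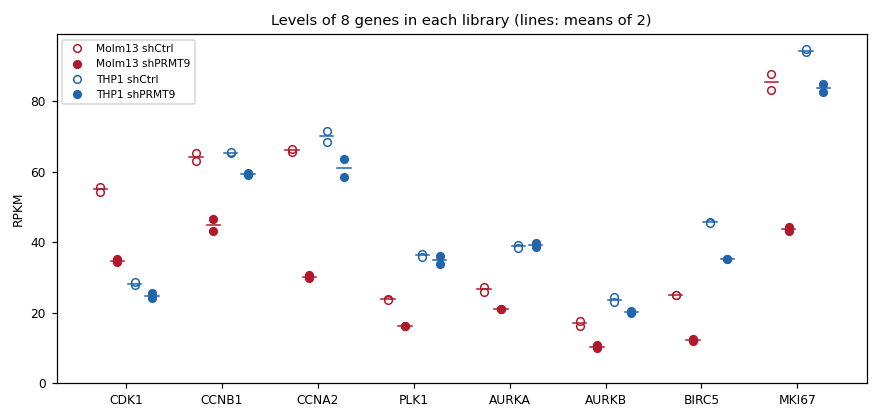
RPKM (y axis) of 8 genes (x axis) in each library, open circles for shCtrl and filled circles for shPRMT9, red for Molm13 and blue for THP1, with short lines at the means of 2 libraries. In Molm13 both shPRMT9 libraries lie below both shCtrl libraries for all 8 genes, and in THP1 the groups overlap for AURKA and PLK1.

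Other genes of the same pathways were read from the same fits. Of 44 further mitotic genes, 43 were lower and 0 higher in Molm13, with a median of -0.75, and 32 were lower and 1 higher in THP1, with a median of -0.18. These values lie close to those of the 51 genes. The shares over all genes tested were 33.6% lower and 33.4% higher in Molm13, and 18.6% and 19.1% in THP1. TOP2A, the topoisomerase that untangles sister chromatids, was at 819.6 and 855 CPM with shCtrl and 509.6 and 508 CPM with shPRMT9 in Molm13 (-0.72 ± 0.02, FDR 4.8e-28) and at 979 and 1015 CPM with shCtrl and 813 and 798 CPM with shPRMT9 in THP1 (-0.31 ± 0.03, FDR 5.6e-10). KIF18B, a motor at microtubule ends, had the largest fall in Molm13, -1.30 ± 0.07. PIMREG, at under 1 CPM in THP1, had the largest value there, -1.20 ± 0.49, which did not pass (FDR 0.053). TRIP13, which removes MAD2 from the checkpoint complex, was the 1 gene higher in THP1, at 54.4 and 57.4 CPM with shCtrl and 101 and 99.1 CPM with shPRMT9 (0.84 ± 0.05, FDR 6.3e-15), against -0.36 ± 0.05 in Molm13; it was named after its values were seen.

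The regulators of these promoters did not move alike. Of the 11 genes of DREAM, MuvB, B-MYB and FOXM1, 9 were lower and 2 higher in Molm13, and 4 were lower, 2 higher and 5 did not pass in THP1. Over all genes tested, 33.6% were lower and 33.4% higher in Molm13, and 18.6% and 19.1% in THP1. The 2 higher genes in THP1 are thus near the share of all genes. FOXM1, the forkhead factor of G2 and mitosis, was at 91.02 and 88.6 CPM with shCtrl and 41.7 and 44.4 CPM with shPRMT9 in Molm13, a change of -1.06 ± 0.05 (FDR 1.4e-23). In THP1 FOXM1 was at 106 and 100.1 CPM with shCtrl and 105 and 112 CPM with shPRMT9, with overlapping libraries and a value of 0.07 ± 0.04 (FDR 0.22), and the difference was 1.14 ± 0.07 (FDR 1.3e-19). MYBL2, which encodes B-MYB, fell in both lines. It was at 211 and 211 CPM with shCtrl and 80.5 and 85.8 CPM with shPRMT9 in Molm13 (-1.34 ± 0.04, FDR 1.5e-31) and at 395 and 373 CPM with shCtrl and 274 and 284 CPM with shPRMT9 in THP1 (-0.46 ± 0.03, FDR 5.3e-12). E2F4 and LIN54, which bring DREAM to DNA, were lower in Molm13 (-0.61 ± 0.05 and -0.53 ± 0.06) and higher in THP1 (0.57 ± 0.05 and 0.15 ± 0.05), with differences of 1.20 ± 0.07 and 0.69 ± 0.08.

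The APC/C itself, as distinct from CDC20, changed less. Of its 16 subunits and partners, 8 were lower, 3 higher and 5 did not pass in Molm13, with a median of -0.17, and 2 were lower, 3 higher and 11 did not pass in THP1, with a median of -0.02. Over all genes tested, 33.6% were lower and 33.4% higher in Molm13, and 18.6% and 19.1% in THP1. The THP1 counts of the APC/C list do not exceed these shares in either direction. UBE2S, which extends ubiquitin chains, had the largest fall in Molm13, -0.90 ± 0.12, and ANAPC7 the largest value in THP1, 0.24 ± 0.05, against -0.65 ± 0.04 in Molm13. FZR1, the activator that takes over from CDC20 after mitosis, was higher in Molm13 (0.21 ± 0.05, FDR 0.001) and had -0.14 ± 0.06 in THP1 (FDR 0.07). Of 9 cohesin genes, whose products hold the sisters together, 8 were lower in Molm13 (median -0.41) and 4 in THP1 (median -0.07), and SMC1A had -0.81 ± 0.03 in Molm13 and SMC3 -0.16 ± 0.04 in THP1.

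DNA replication genes, which act in S phase before the genes described here, had a lower median in Molm13. Of 32, 31 were lower and 0 higher, with a median of -0.94, whereas in THP1 12 were lower, 6 higher and 14 did not pass, with a median of -0.05. Shares over all genes tested were 33.6% lower and 33.4% higher in Molm13, and 18.6% and 19.1% in THP1. MCM2, of the replicative helicase, had -0.80 ± 0.03 in Molm13 and 0.08 ± 0.04 in THP1 (FDR 0.092). PCNA, the sliding clamp, had -1.05 ± 0.03 and -0.05 ± 0.04 (FDR 0.40). MCM10 had the largest fall in Molm13, -1.79 ± 0.05, and GINS2 in THP1, -0.53 ± 0.06. Against the mitosis genes, this median was thus lower in Molm13 and higher in THP1, a comparison of medians with no test.

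**Figure D5:**
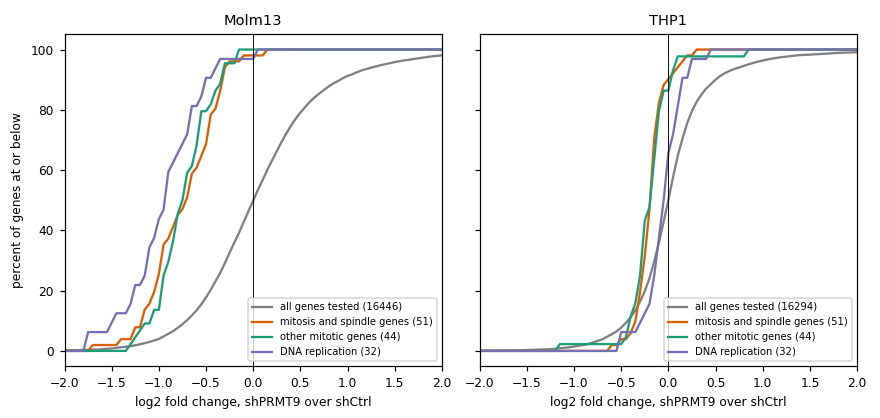
Percent of genes (y axis) with a log2 fold change at or below the value on the x axis, for all genes tested (grey), the 51 mitosis and spindle genes (orange), 44 other mitotic genes (green) and 32 DNA replication genes (purple), in Molm13 (left) and THP1 (right). In Molm13 all 3 lists are shifted left of all genes, and in THP1 the 2 mitotic lists have medians of -0.20 and -0.18 while the replication genes have -0.05.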

How the data were processed

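PolyA RNA was read from Molm13 and THP1 cells with Dox-induced shCtrl or shPRMT9, 2 libraries per group. The authors deposited 1 table of raw read counts per gene and line, made, per the labels' tool list, with TopHat2 2.0.8, HTSeq 0.11.2 and edgeR 3.30.3 on hg38. The strand setting and the annotation release are not given in the sources used here. Counts were tested with edgeR 4.0.16 (R 4.3.3), with TMM factors, filterByExpr, quasi-likelihood tests and Benjamini-Hochberg adjustment (FDR) over all genes tested, 1 fit per line and an interaction term over all 8 libraries for the difference. SE was taken as the size of the log2 fold change over the square root of F. CPM uses the TMM-scaled library size. Library totals of 18720950 to 27356870 counts set the counting precision. On simulated data, 167, 160 and 106 of 200 genes changed 2-fold were recovered in Molm13 (16446 genes), THP1 (16294) and the difference (19288), with 7, 12 and 4 false calls. The simulated counts used the spread per gene that edgeR estimated from these libraries. Only 200 genes were changed, whereas 67.0% of genes passed the FDR in Molm13. The simulation thus cannot show whether that spread or the scaling holds in the data. Replicate libraries differed by more than sampling noise (chi-square per gene 1.32 to 2.06). The spread beyond counting noise that edgeR estimated over all genes, as a coefficient of variation, was small. It was 0.020 in Molm13, 0.025 in THP1 and 0.022 in the fit for the difference. The SE and FDR values rest on this spread, which may be technical.

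Values per library were given for CDK1, CCNB1, CCNA2, PLK1, AURKA, AURKB, BIRC5 and MKI67. They were also given for the 5 highest and 5 lowest log2 fold changes and the smallest FDR in each line, and the 5 smallest FDRs of the difference. In Molm13 the highest values include falls, as CDC25C alone was above 0. The members, roles and lists (5 pathway lists, and markers of myeloid, B, T and erythroid cells, HOXA with MEIS1, and HOXB) were chosen with earlier results of these data known. Alternatives were RLE, library-size and upper-quartile scaling, no filter, DESeq2 1.42.0, limma-voom 3.58.1, a replicate block, a common fit, other call limits and each library left out. A correction for GC content and length was added after the data were seen.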

Additional observations from a re-analysis of the deposited data

Results flagged for a closer look

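By the interaction test of edgeR, 48 of the 51 genes responded differently to shPRMT9 in the 2 lines, and all 48 had the higher log2 fold change in THP1. Among all genes tested 22.5% did so. The values below are the THP1 minus the Molm13 log2 fold change, each with an FDR below 0.05. Among the cyclins, CDK1 and CDC25B the difference was 0.94 (CCNA2), 0.49 (CDK1), 0.43 (CDC25B), 0.39 (CCNB1) and 0.29 (CCNB2). The checkpoint genes differed by 0.86 (BUB1), 0.70 (MAD2L1), 0.50 (BUB1B), 0.48 (TTK) and 0.17 (BUB3). For the genes of APC/C activity and sister separation it was 1.30 (CDC20), 0.53 (PTTG1), 0.28 (UBE2C) and 0.25 (ESPL1). Kinetochore and centromere genes, which all passed, had differences of 0.80 (CENPF), 0.77 (NUF2), 0.72 (CENPE), 0.66 (CENPA), 0.64 (SPC25), 0.52 (SPC24) and 0.46 (NDC80). In the passenger complex the values were 0.67 (CDCA8), 0.66 (BIRC5), 0.51 (AURKB) and 0.40 (INCENP). Of the kinesins, 7 passed, with 0.90 (KIF14), 0.79 (KIF15), 0.62 (KIF11), 0.59 (KIF20B), 0.59 (KIF23), 0.55 (KIF4A) and 0.23 (KIF2C). At the spindle poles the differences were 1.92 (WDR62), 0.74 (ASPM), 0.51 (PLK1), 0.45 (TPX2), 0.40 (CKAP5), 0.36 (AURKA), 0.25 (NUSAP1) and 0.15 (CKAP2). The cytokinesis genes had 1.02 (ECT2), 0.55 (ANLN) and 0.33 (PRC1). Condensin and MKI67 gave 1.06 (NCAPH), 0.90 (SMC2), 0.81 (MKI67), 0.59 (NCAPG) and 0.19 (SMC4). The calls of ESPL1 and CKAP2 were lost under several alternatives. In WDR62 and ANLN the sign itself differed, the genes being lower in Molm13 and higher in THP1. Cell line, library set and the way the counts of each line were made change together here, and their parts cannot be told apart.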

How the results depend on the processing

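The fall in Molm13 held under every scaling, filter and tool tried, with 49 (DESeq2) to 50 of the 51 genes lower, and KIF20A was the call lost. In THP1 38 to 46 were lower, and the difference between the lines passed in 45 to 49 genes. With a fold limit of 2, 13 genes passed the stricter rule in Molm13 and 0 in THP1. A correction for GC content and length raised the THP1 count from 1 to 2, also with the replicate block. The difference also exceeded 1.5-fold in 23 genes. The Molm13 median moved from -0.71 to -0.77 with the correction for GC content and length, alone or with the block, which also moved the median of all genes to -0.06 in Molm13 and -0.03 in THP1. It ranged from -0.76 to -0.65 when single libraries were left out. The THP1 median was -0.23 with library-size scaling, -0.22 with the upper quartile, -0.24 with the GC and length correction, alone or with the block, and -0.22 to -0.19 with single libraries left out. Signs turned for values near 0, and the cause was not tested. PTTG1 in THP1 went to -0.00127 with the GC and length correction and -0.000211 with the block added. AURKA in THP1 was -0.0142 with library-size scaling, -0.00885 with the upper quartile, -0.0426 with the GC and length correction, -0.0431 with the block added, and -0.00961 to 0.0338 with single libraries left out. The KIF20A difference was -0.0167 with RLE, -0.0169 with DESeq2, -0.0361 with library-size scaling, -0.0508 with the upper quartile, -0.000595 without the filter, and -0.0513 to -0.00298 with single libraries left out. The KIF18A difference was -0.00608 with RLE, -0.0256 with library-size scaling, -0.0403 with the upper quartile, -0.00968 with DESeq2, -0.0345 with the GC and length correction, -0.0381 with the block added, and -0.122 to 0.0821 with single libraries left out.

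Replicate numbers were not shown to pair the libraries. Deviations of same-numbered libraries correlated at -0.09 in Molm13 and -0.01 in THP1, over 2 pairs each. With the replicate number as a block, 50 genes passed in Molm13, 43 in THP1, where CKAP5 was the call lost, and 48 for the difference. Of the values of single genes under all alternatives, 2205 kept direction and side of the threshold, 43 lost the call, 16 gained it and 31 turned in sign. Without 1 library, the difference lost its call for CCNB2 (0.18) and KIF2C (0.15) without the Molm13 shPRMT9 library 2 and for BUB3 (0.09) without the THP1 shPRMT9 library 1. ESPL1 lost it with the upper quartile (0.19), no filter (0.24) and DESeq2 (0.23), and CKAP2 with the upper quartile (0.09), DESeq2 (0.13) and the GC and length correction (0.10). ESPL1 also lost it (0.12 to 0.19) without the Molm13 shCtrl library 2 or shPRMT9 library 1, or the THP1 shCtrl library 1 or shPRMT9 library 2, and CKAP2 (0.09 to 0.13) without the Molm13 shCtrl library 2 or either shPRMT9 library, or the THP1 shCtrl library 2 or shPRMT9 library 1. CDC25C gained it without the THP1 shCtrl library 2 (-0.40) or shPRMT9 library 2 (-0.47), and with library-size scaling (-0.34) and the upper quartile (-0.36), in the direction opposite to the 48. With 2 libraries a group, a lone remaining library is taken to vary like the others.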
